A study of Homo sapiens with 6 samples.

Results

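The 34 genes of sterol and fatty acid synthesis described here are the SREBP-driven cholesterol and fatty acid genes, their regulators and 2 genes of sterol export and receptor turnover, taken by symbol from the 60671 gene rows of the count table. All 34 were matched to 1 row each, and all 34 passed the filter on low counts. They comprise 7 enzymes of the mevalonate pathway, 11 of the later sterol pathway, 5 regulators, the sterol carrier STARD4, 8 enzymes of fatty acid synthesis and modification, and ABCA1 and MYLIP, known targets of the LXR nuclear receptors. Messenger RNA was sequenced in A549, HCC827 and H1975, established lung adenocarcinoma lines labelled wild type, of which HCC827 and H1975 carry mutant EGFR. Each line was exposed for 48 h to the diterpenoid AL-X (9α,11α-dihydroxy-kaurenoic acid) at 10 µg/mL or to its solvent DMSO, with 1 library per line and treatment and 6 libraries in all. The labels name no replicate cultures, so the lines serve as the replicates.

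Cells make cholesterol from acetyl-CoA through mevalonate, isoprenoids, squalene and lanosterol. When sterols in the endoplasmic reticulum are low, SCAP carries the SREBP precursors (from SREBF1 and SREBF2) to the Golgi, where they are cleaved into transcription factors. The INSIG proteins hold SCAP back when sterols are abundant. SREBP2 acts mainly on cholesterol genes and SREBP1c mainly on fatty acid genes, while LXR receptors respond to oxysterols and drive SREBF1, ABCA1 and MYLIP. Lung adenocarcinoma cells commonly run both pathways at high levels.

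Library totals ranged from 98139178 to 126840915 counts. Values are CPM, read counts relative to library size after TMM scaling, and the log2 folds of a line compare its AL-X library with its DMSO library. With library totals as the only scaling, the median log2 fold of all genes at 5 CPM or more shifted by -1.004 (A549), 0.13 (HCC827) and -0.41 (H1975). Folds are therefore relative to that shift and reversals are named. Of the 5 epithelial markers, KRT8, KRT18 and CDH1 had more than 5 CPM in every library, while EPCAM (1.47 to 2.67 CPM) and KRT19 (4.62 to 5.00 CPM) were low in A549. Markers of blood, endothelial and stromal cells summed to between 2.41 and 7.42 CPM per library, with PTPRC and CD3E at 0 counts in all libraries. CDH1 differed with treatment in A549 (209 CPM with DMSO, 15.6 with AL-X), and its part in the results was not tested. Bulk counts cannot tell fewer transcripts per cell from a change in which cells were recovered.

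The promoters of these genes are known for sterol regulatory elements bound by SREBP, which cooperate with NF-Y at CCAAT boxes. RefSeq windows of 250 bases before to 50 after the start (GRCh38.p14) were held for 30 of the 34 genes, all except ACAT2, FDFT1, SQLE and FASN. Exact matches were sought on both strands for TCACNCCAC (a core of the sterol regulatory element), CCAAT (the NF-Y box), CACGTG (an E-box) and AGGTCA repeated with 4 bases between (an LXR element), none of which contains another. CCAAT was found in 19 of the 30 windows (63.3%), against 34.6% of 35116 windows in the table and 36.2% of the 12585 windows of genes tested in the across-line comparison. All 19 had a match before the start, including 5 in MVK, 5 in NSDHL and 4 in MSMO1. No match lay in the windows of the other 11, which are PMVK, IDI1, CYP51A1, INSIG2, SREBF1, SCAP, ACACA, ELOVL6, FADS1, FADS2 and ABCA1. TCACNCCAC was found in SREBF2 alone (3.33% of the windows, against 1.13% of all), CACGTG in 5 (16.7%, against 7.26%) and the LXR element in none (7 of all 35116 windows hold it).

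Stretches that hold these letters are shown with each match in capitals, 5′ to 3′ on the gene's strand and ending before any annotated transcript of the gene. The match to the sterol regulatory element core lies in SREBF2 (chr22:41832957-41833018, plus strand), with a CCAAT box on the opposite strand after it, so that the box reads ATTGG.
SREBF2: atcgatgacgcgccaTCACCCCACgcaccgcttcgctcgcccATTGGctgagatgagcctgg
The next set belongs to the 5 genes with the largest excess with AL-X in H1975, in which 4 are synthesis genes or their regulator INSIG1: MYLIP (chr6:16128962-16129037, plus), MSMO1 (chr4:165327469-165327612, plus), MVD (chr16:88663162-88663265, minus), INSIG1 (chr7:155297693-155297727, plus) and HMGCS1 (chr5:43313548-43313582, minus).
MYLIP: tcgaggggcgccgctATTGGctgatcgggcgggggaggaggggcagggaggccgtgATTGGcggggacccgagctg
MSMO1: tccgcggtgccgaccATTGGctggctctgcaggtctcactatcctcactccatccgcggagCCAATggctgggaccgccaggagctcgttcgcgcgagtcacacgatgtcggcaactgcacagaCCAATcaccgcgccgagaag
MVD: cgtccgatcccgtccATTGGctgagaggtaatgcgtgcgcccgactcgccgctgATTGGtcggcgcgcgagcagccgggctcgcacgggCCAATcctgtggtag
INSIG1: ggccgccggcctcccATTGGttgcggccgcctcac
HMGCS1: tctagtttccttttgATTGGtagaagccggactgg
The last set belongs to the 3 genes at least 2-fold lower with AL-X in every line, with no floor on CPM: TM7SF2 (chr11:65111783-65111817, plus), SCD (chr10:100346989-100347066, plus) and ABCA1 (chr9:104928282-104928317, minus), of which ABCA1 holds an E-box and no CCAAT box.
TM7SF2: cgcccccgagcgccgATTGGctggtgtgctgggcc
SCD: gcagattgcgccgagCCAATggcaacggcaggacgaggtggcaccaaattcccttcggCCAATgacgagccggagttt
ABCA1: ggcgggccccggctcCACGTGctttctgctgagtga
CCAAT boxes thus occurred both before genes that were higher with AL-X and before genes that were lower. A match describes letters only and is not shown to be a bound site. A missing match does not show that a site is absent, since only exact letters within these windows were sought.

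With DMSO, levels were compared per kilobase of merged exons. By the mean over the 3 lines, fatty acid enzymes took the first 5 places. SCD, which makes oleate from stearate, stood at 875 CPM per kb in A549, 314 in HCC827 and 294 in H1975. ACLY, which supplies cytosolic acetyl-CoA, had 194, 97.0 and 80.7, and FASN, which builds palmitate, had 102, 96.1 and 104. The desaturases FADS2 and FADS1 differed most between lines. FADS2 had 135 CPM per kb in A549, 4.54 in HCC827 and 10.1 in H1975, a range of 29.8-fold, and FADS1 had 101, 18.4 and 13.2. Both desaturases were below SREBF1 and INSIG1 in HCC827 (44.0 and 43.3) and in H1975 (22.1 and 46.1). HSD17B7, a sterol ketoreductase, was the lowest at 2.43 ± 0.0876 (mean ± SD, n = 3 lines) and TM7SF2, a sterol reductase, next at 2.68 ± 1.60. In the order of means, none of the 33 pairs of neighbours was apart by more than the sum of the SDs over lines. The 3 libraries are of different lines, so this spread is between lines.

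**Figure D1:**
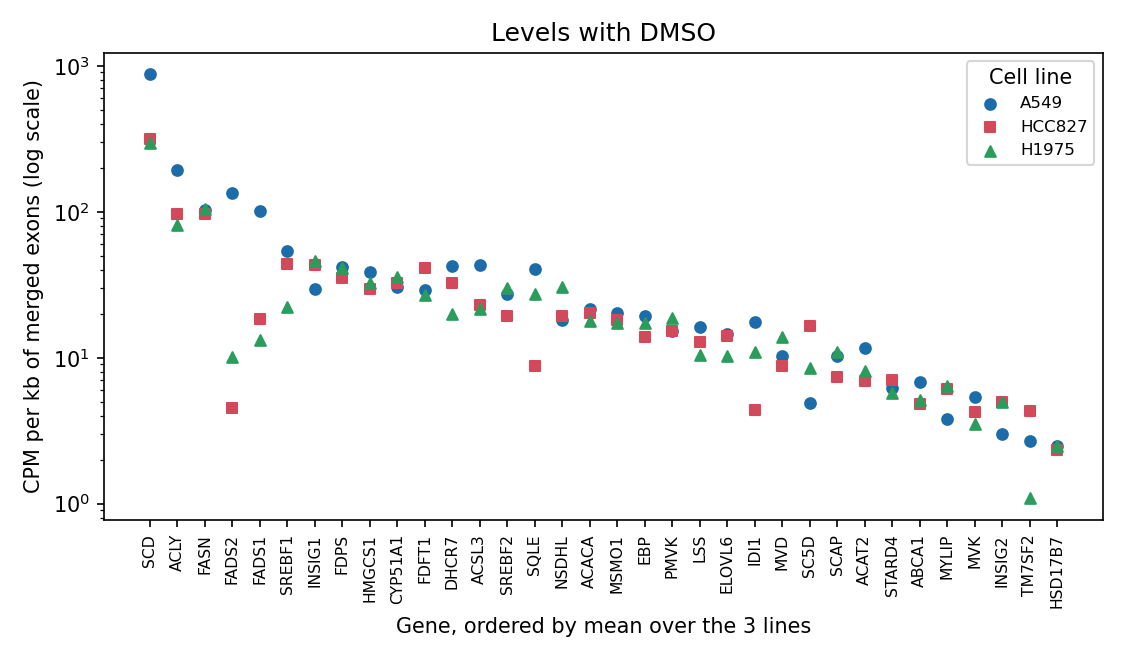
Levels of the 34 genes in the DMSO libraries in CPM per kb of merged exons (log axis), ordered by the mean over the 3 lines; each point is 1 library. SCD leads in every line, and FADS2 spans from 4.54 in HCC827 to 135 in A549.

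The across-line comparison asks which of these genes AL-X changed alike in the 3 lines. None of the 34 passed it (edgeR quasi-likelihood test with the line as a block, Benjamini-Hochberg adjustment over 20344 genes), and 0.256% of all genes tested did. The smallest adjusted p was 0.1502, for ABCA1. At an unadjusted p under 0.05, 8 of the 34 were lower, against 10.2% of all genes tested, and 2 were higher, against 5.48%. The 8 were ABCA1, ELOVL6, LSS, SREBF1, ACACA, SCD, FADS2 and TM7SF2, and the 2 were IDI1 and MYLIP. The AL-X libraries lay entirely below the DMSO libraries for 7 genes (ABCA1, SCD, ELOVL6, ACACA, SREBF1, LSS and STARD4), as for 9.54% of all genes, and entirely above for MSMO1, as for 7.78%. In every line 10 genes were lower (LSS, TM7SF2, SREBF1, SREBF2, STARD4, ACACA, SCD, ELOVL6, FADS2 and ABCA1), which held for 25.4% of all genes, and all 10 stayed so with library totals (23.6% of all genes under both scalings). IDI1, ACSL3 and MSMO1 were higher in every line (16.8% of all genes), the first 2 also with library totals (10.1%). A difference of 2-fold or more in every line was found for 3 lower genes, SCD, TM7SF2 and ABCA1 (6.97% of all genes), and for 0 higher ones (2.51%). These counts and shares have no floor on CPM. TM7SF2 was under 5 CPM in H1975 (3.71 with DMSO and 1.61 with AL-X), so the within-line count for H1975 leaves it out. The median log2 fold was -0.27 over the 34 genes and -0.27 over all genes tested, which include genes under 5 CPM. Within lines the median of the 34 was -0.76 (A549), -0.54 (HCC827) and 0.48 (H1975). Over all genes at 5 CPM or more it was -0.019, -0.045 and 0.063.

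Other tools called some of these genes. DESeq2 called MYLIP and IDI1 higher (2.95% of all genes tested were called higher) and ABCA1, SCD, ELOVL6 and TM7SF2 lower (6.81% were called lower). Limma-voom called MYLIP higher (1.59% of all genes) and ABCA1 lower (1.66%). Over the 12 alternatives the adjusted p ranged from 0.0167 to 0.627 for MYLIP, 0.0071 to 0.570 for ABCA1, 0.0176 to 0.857 for SCD, 0.0352 to 0.569 for ELOVL6, 0.0418 to 0.685 for IDI1 and 0.0485 to 0.769 for TM7SF2.

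Within the lines, which have 1 library per treatment and so no test, the 34 genes lay differently. Counts are of genes that differed 2-fold or more and reached 5 CPM in either library. In A549, 4 of 34 were higher and 16 lower, beside 29.8% and 31.8% of all genes considered. In HCC827 none was higher and 13 were lower, beside 10.7% and 17.3%. In H1975, 9 of the 33 genes at 5 CPM or more were higher and 3 lower, beside 15.4% and 17.8%. With library totals as the scaling the counts became 2 and 23 in A549, 0 and 11 in HCC827, and 6 and 8 in H1975. Shares of all genes were not counted under that scaling. It shifted the median of all genes by -1.004 in A549, 0.13 in HCC827 and -0.41 in H1975. The shares above are therefore no background for these counts. As a share of all counts, the 34 genes together took 1.36% with DMSO and 0.339% with AL-X in A549, 0.691% and 0.410% in HCC827, and 0.684% and 0.688% in H1975.

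**Figure D2:**
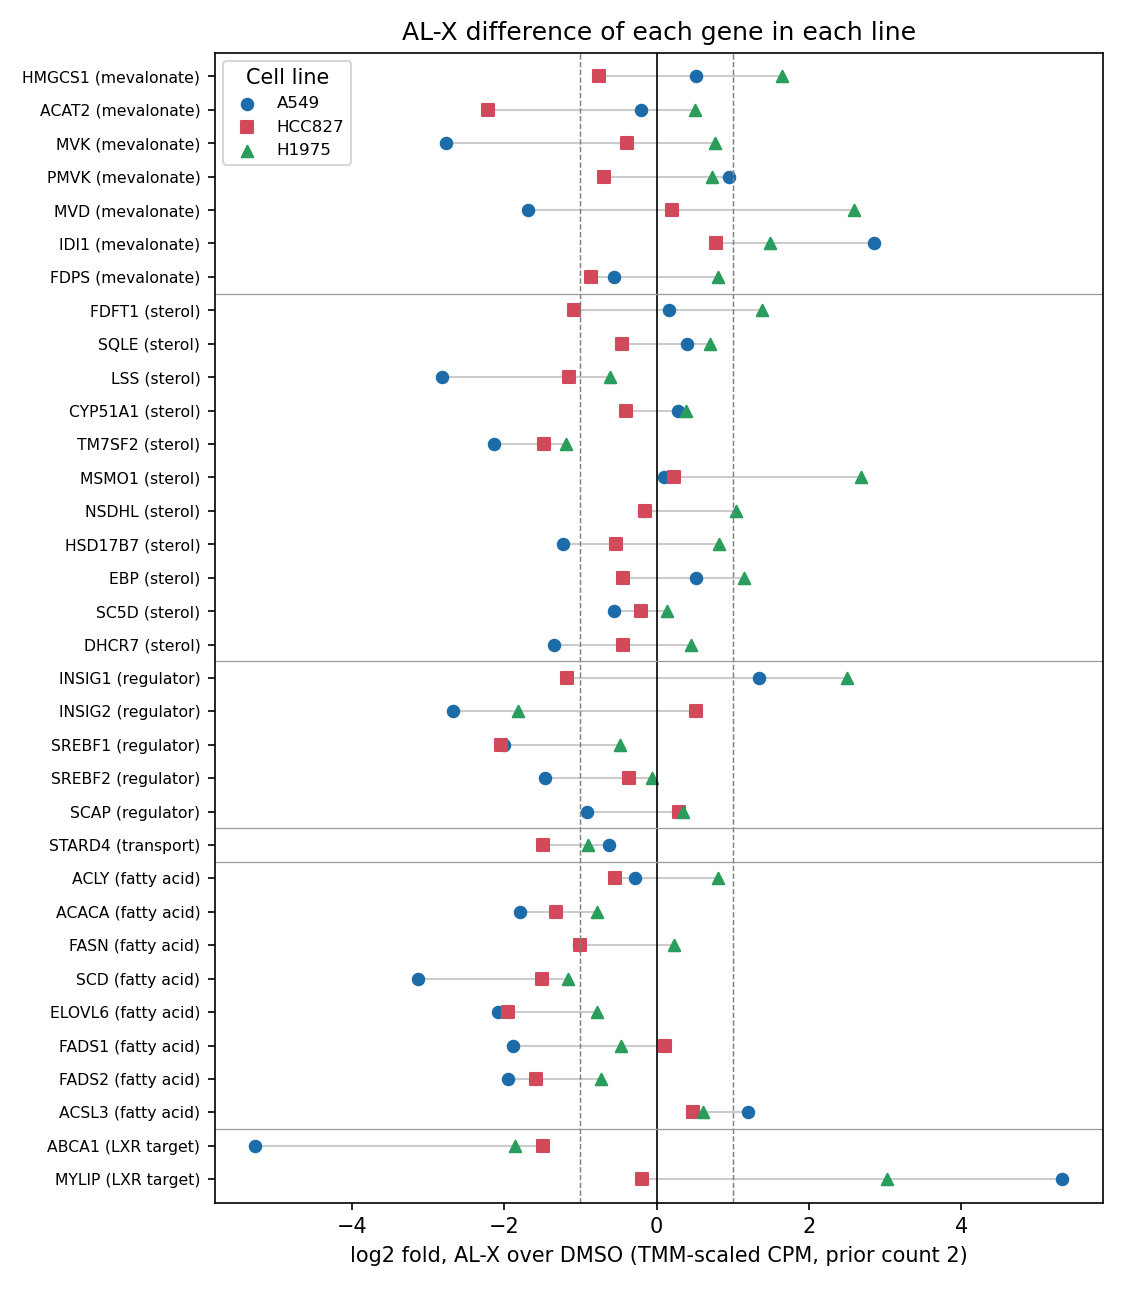
Log2 fold of AL-X over DMSO for each of the 34 genes (rows, grouped by role) in A549 (circles), HCC827 (squares) and H1975 (triangles); dashed lines mark 2-fold. Most H1975 points of the mevalonate and sterol enzymes lie to the right of 0, while those of SCD, ELOVL6, FADS2, ACACA and ABCA1 lie to the left in every line.

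Mevalonate pathway enzymes were all above 0 in H1975 (7 of 7, with a median log2 fold of 0.81), and 5 of 7 were below 0 in HCC827 (median -0.69). In A549 the median was -0.20. With library totals 1, 2 and 7 were above 0 in A549, HCC827 and H1975, with medians of -1.21, -0.56 and 0.40. A549 then had the lowest median. Under TMM scaling, 6191 of all 11818 genes at 5 CPM or more were above 0 in H1975. In HCC827, 6215 of 11938 were below 0. IDI1 (ENSG00000067064, chr10:1039152-1049170, minus strand), which isomerises isopentenyl diphosphate, was the one enzyme of the 7 that was higher in every line under both scalings. It had 76.7 CPM with DMSO and 554 with AL-X in A549, 18.9 and 32.4 in HCC827, and 47.5 and 133 in H1975. Each AL-X library was above its own control, although HCC827 with AL-X stayed below A549 with DMSO. Its log2 fold was 2.85 in A549 (exact binomial 95% interval 2.82 to 2.89), 0.78 in HCC827 and 1.49 in H1975, and 1.70 across lines (SE 0.57, edgeR adjusted p = 0.208). Such intervals cover counting error only, and gene positions are those of GENCODE 29 on GRCh38.

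HMGCS1, the enzyme that makes HMG-CoA, had 181 CPM with DMSO and 259.8 with AL-X in A549, 139 and 82.2 in HCC827, and 152 and 474 in H1975. It was thus 1.64 log2 units higher in H1975, 0.76 lower in HCC827, and 0.52 higher in A549, a difference that becomes -0.48 there with library totals. MVD, which makes isopentenyl diphosphate, ran in opposite directions in 2 lines: 48.6 CPM went with 15.1 in A549 (log2 fold -1.69) and 65.0 with 393 in H1975 (2.59), while HCC827 had 41.5 and 47.9 (0.21). MVK, which phosphorylates mevalonate, had 34.7 and 5.08 CPM in A549 (-2.77), 27.6 and 21.1 in HCC827 (-0.39) and 22.8 and 38.7 in H1975 (0.76). The DMSO and AL-X groups therefore overlapped for these enzymes, and the across-line adjusted p lay at 0.713 for HMGCS1, 0.844 for MVD and 0.616 for MVK. ACAT2, the cytosolic thiolase that starts the pathway, was 2.21 log2 units lower in HCC827 (29.7 and 6.39 CPM), against -0.20 in A549 and 0.50 in H1975. PMVK, the next kinase, was above its control in A549 (0.94, or -0.061 with library totals) and H1975 (0.73) and below it in HCC827 (-0.69), and FDPS, which makes farnesyl diphosphate, was at -0.56, -0.86 and 0.81 in A549, HCC827 and H1975. HCC827 was the lowest of the 3 lines for both, but with library totals A549 was the lowest for FDPS (-1.56, against -0.73 in HCC827).

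Among the 11 later sterol enzymes, 9 were above 0 in H1975 (median 0.70), 5 in A549 (median -0.17) and 1 in HCC827 (median -0.44). With library totals these became 7, 0 and 1. Of all genes at 5 CPM or more, those above 0 under TMM scaling were 6191 of 11818 (H1975), 5948 of 11973 (A549) and 5723 of 11938 (HCC827). MSMO1, the sterol C4 methyl oxidase, had the largest excess, in H1975, with 49.7 CPM with DMSO and 319 with AL-X (log2 fold 2.68, interval 2.64 to 2.72). In A549 it had 58.3 and 62.1 CPM and in HCC827 52.7 and 61.7, so its AL-X libraries all lay above the DMSO libraries, though by little in 2 lines. Its across-line fold was 0.95 (SE 0.61, edgeR adjusted p = 0.457), and in A549 the fold of 0.091 becomes -0.91 with library totals. FDFT1, the squalene synthase, was at 1.38 log2 units in H1975, 0.16 in A549 (-0.85 with library totals) and -1.08 in HCC827. SQLE, the squalene epoxidase, was at 0.70, 0.40 (-0.61 with library totals) and -0.45 in the same order. EBP, the sterol isomerase, followed the same order, at 1.14 in H1975, 0.51 in A549 (-0.49 with library totals) and -0.44 in HCC827. With library totals A549 became the lowest line for SQLE and EBP, since HCC827 was then at -0.33 and -0.31.

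LSS and TM7SF2 went the other way from their pathway in H1975, being lower in every line. LSS, which cyclises squalene epoxide to lanosterol, had 118 CPM with DMSO and 16.7 with AL-X in A549, 92.6 and 41.8 in HCC827, and 75.2 and 49.3 in H1975. All its AL-X libraries were below all DMSO libraries, with log2 folds of -2.82, -1.15 and -0.61, and -1.51 across lines (SE 0.55, edgeR adjusted p = 0.236). Within a library, which takes scaling out, the ratio of MSMO1 to LSS per kb went from 1.24 to 9.31 in A549, from 1.42 to 3.69 in HCC827 and from 1.65 to 16.2 in H1975. TM7SF2 was low throughout, at 9.09 and 2.05 CPM in A549, 14.6 and 5.22 in HCC827 and 3.71 and 1.61 in H1975 (-1.61 across lines, SE 0.72, adjusted p = 0.310). The remaining 5 were NSDHL, HSD17B7, CYP51A1, SC5D and DHCR7. NSDHL, a sterol dehydrogenase, was close to its control in A549 (-0.17, or -1.17 with library totals) and HCC827 (-0.15) and at 1.04 in H1975. HSD17B7 was at -1.23, -0.54 and 0.82, and DHCR7, which completes cholesterol, at -1.35, -0.44 and 0.46. The lanosterol demethylase CYP51A1 (0.28, -0.40 and 0.39) and the desaturase SC5D (-0.56, -0.20 and 0.14) stayed within 2-fold in every line. With library totals both were below 0 in all 3, and SC5D was more than 2-fold lower in A549 (-1.57).

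Among the regulators, INSIG1 and INSIG2 took opposite directions in every line. INSIG1 (ENSG00000186480, chr7:155297776-155310235, plus strand), itself an SREBP target, had 107 CPM with DMSO and 272 with AL-X in A549 (log2 fold 1.35), 158 and 70.1 in HCC827 (-1.17), and 168 and 950.1 in H1975 (2.50). INSIG2 (ENSG00000125629, chr2:118088452-118110997, plus strand), whose product has the same function, had 11.9 and 1.86 CPM in A549 (-2.67), 19.7 and 28.1 in HCC827 (0.51), and 19.5 and 5.50 in H1975 (-1.82). A549 and H1975 thus had more INSIG1 and less INSIG2 with AL-X, and HCC827 showed the reverse, under both scalings. Per kb and within a library, the ratio of INSIG1 to INSIG2 was near 9 in every DMSO library, at 9.74 in A549, 8.68 in HCC827 and 9.34 in H1975. With AL-X it was 159 in A549 and 187 in H1975 but 2.70 in HCC827. Neither gene passed the test that HCC827 differed from the mean of the other lines (edgeR interaction term). The difference was -3.09 log2 units for INSIG1 (SE 1.19, unadjusted p = 0.00917, adjusted p = 0.345) and 2.76 for INSIG2 (SE 1.35, unadjusted p = 0.0414, adjusted p = 0.588).

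SREBF1 was lower in each line, and all its AL-X libraries lay below all DMSO libraries. It had 430.4 CPM with DMSO and 108 with AL-X in A549, 354 and 85.8 in HCC827, and 177 and 128 in H1975, for log2 folds of -1.999, -2.04 and -0.48. Its across-line fold was -1.52 (SE 0.58, edgeR adjusted p = 0.249). SREBF2 had log2 folds of -1.46, -0.36 and -0.064, with 206 and 74.7 CPM in A549 and 228 and 218 in H1975. The ratio of SREBF1 to SREBF2 per kb went from 1.97 to 1.36 in A549, from 2.29 to 0.715 in HCC827 and from 0.733 to 0.552 in H1975. SCAP, the escort protein, was at -0.91, 0.29 and 0.34 (-0.068 in H1975 with library totals). STARD4, which carries cholesterol between membranes and is itself an SREBP target, was lower in each line without overlap, from 35.0 to 22.8 CPM in A549, 40.1 to 14.3 in HCC827 and 32.6 to 17.4 in H1975 (across-line fold -1.004, SE 0.51, edgeR adjusted p = 0.3598).

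**Figure D3:**
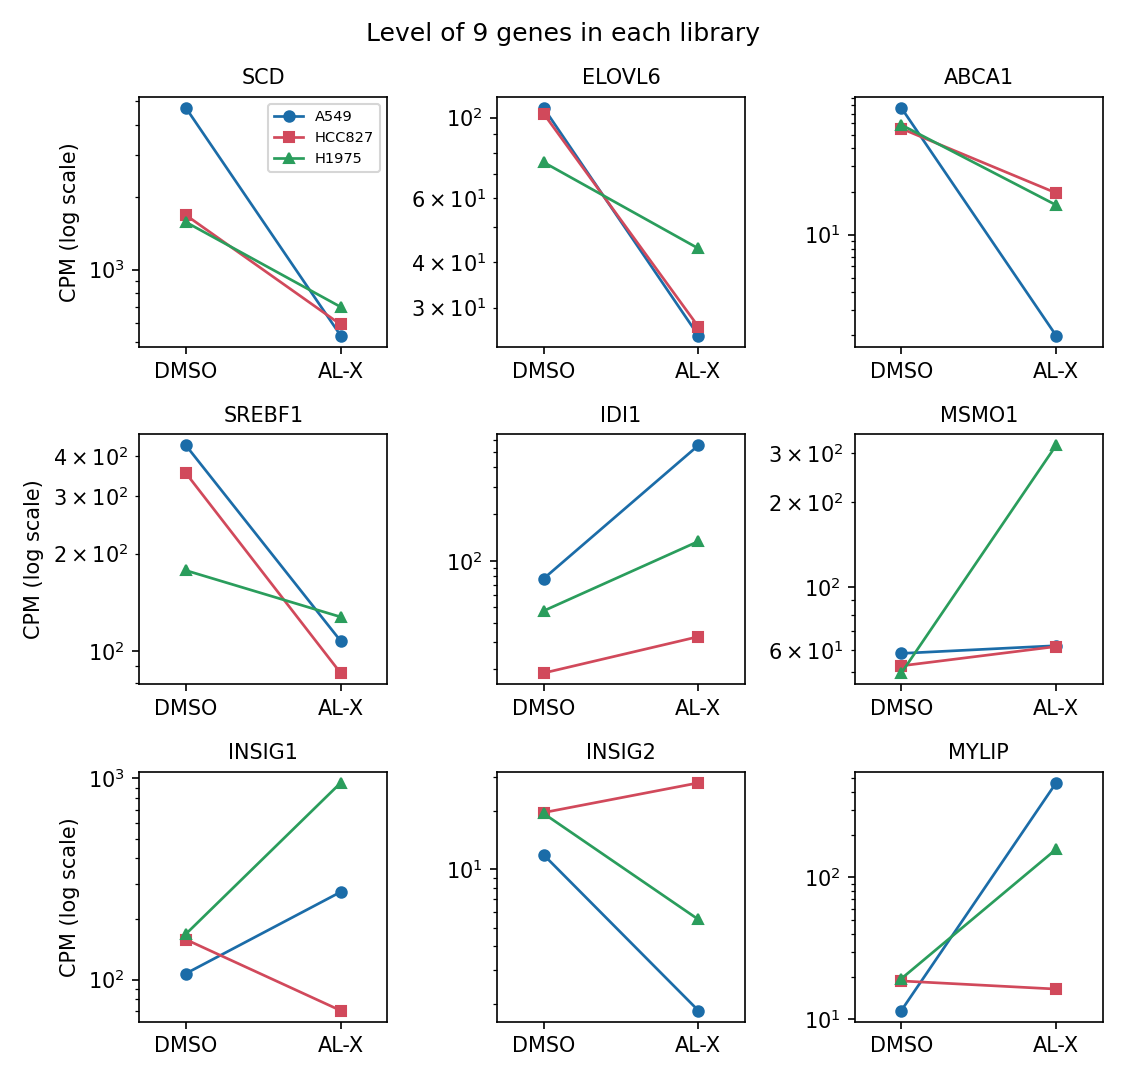
CPM (log axes) of 9 genes with DMSO and with AL-X; each line joins the 2 libraries of a cell line. SCD, ELOVL6, ABCA1 and SREBF1 slope down in all lines, IDI1 slopes up, and INSIG1, INSIG2 and MYLIP take another direction in HCC827 than in A549 and H1975.

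Fatty acid enzymes were mostly lower, with 6 of 8 at least 2-fold lower in A549, 5 in HCC827 and 1 in H1975. Of all genes considered, 31.8%, 17.3% and 17.8% were that much lower. The median log2 folds were -1.84, -1.16 and -0.60. Scaled by library totals, 7, 4 and 4 of the 8 were at least 2-fold lower, with medians of -2.85, -1.04 and -1.01. The shares of all genes given here are under TMM scaling only. SCD (ENSG00000099194, chr10:100347124-100364834, plus strand) had 4692 CPM with DMSO and 533 with AL-X in A549, 1684 and 592 in HCC827, and 1575 and 700.3 in H1975. With DMSO the highest line, A549, stood at 2.98 times the lowest, and with AL-X it was the lowest of the 3. Its log2 folds were -3.14 (interval -3.15 to -3.12), -1.51 and -1.17, and -1.92 across lines (SE 0.80, edgeR adjusted p = 0.282). As a share of all counts, SCD took 0.518% with DMSO and 0.0295% with AL-X in A549, 0.196% and 0.0753% in HCC827, and 0.189% and 0.0632% in H1975, so on this scale the AL-X libraries remain further apart than on the TMM scale.

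ELOVL6, which elongates palmitate, had 106 and 25.1 CPM in A549, 103 and 26.6 in HCC827, and 75.3 and 43.6 in H1975. Both it and ACACA, the carboxylase that makes malonyl-CoA, had AL-X libraries entirely below the DMSO libraries. ACACA had 279 and 80.2 CPM, 265 and 106, and 231 and 134 in the same order. Across lines ELOVL6 was at -1.61 (SE 0.49, edgeR adjusted p = 0.176) and ACACA at -1.30 (SE 0.52, adjusted p = 0.269). FADS2, the first desaturase of polyunsaturated fatty acids, was at -1.95, -1.58 and -0.73 by line and -1.42 across lines (SE 0.59, adjusted p = 0.283). FADS1, the desaturase that follows it, was at -1.89 in A549 and -0.47 in H1975 but 0.10 in HCC827, where 188 CPM stood against 202. FASN was at -1.02 and -1.01 in A549 and HCC827 and at 0.23 in H1975 (-0.18 with library totals). ACLY differed by less than 2-fold in each line (-0.29, -0.54 and 0.80), but was at -1.29 in A549 with library totals.

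ACSL3, which activates fatty acids on lipid droplets and the endoplasmic reticulum, was the one fatty acid gene higher in every line under both scalings. It had 313 and 718 CPM in A549, 167 and 233 in HCC827, and 157 and 239 in H1975. Its log2 folds were 1.20, 0.48 and 0.61, and with library totals 0.19, 0.60 and 0.20. Across lines it was at 0.76 (SE 0.55, edgeR adjusted p = 0.511).

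The median of the 18 mevalonate and sterol enzymes exceeded that of the 8 fatty acid enzymes in each line. The gap was 1.66 log2 units (A549), 0.72 (HCC827) and 1.38 (H1975), a difference that scaling barely touches since it shifts both medians alike. This contrast was chosen after the values were seen and has no test. The fatty acid genes were longer (median merged exons of 8330.5 bases, against 4302). Over all protein-coding genes within the length range of the fatty acid enzymes, 5217 to 13008 bases, the median fold was -0.56 (A549), -0.062 (HCC827) and -0.17 (H1975). Within the range of the cholesterol enzymes, 1280 to 7238 bases, it was 0.27, -0.017 and 0.25. The part of length in the difference was not tested.

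**Figure D4:**
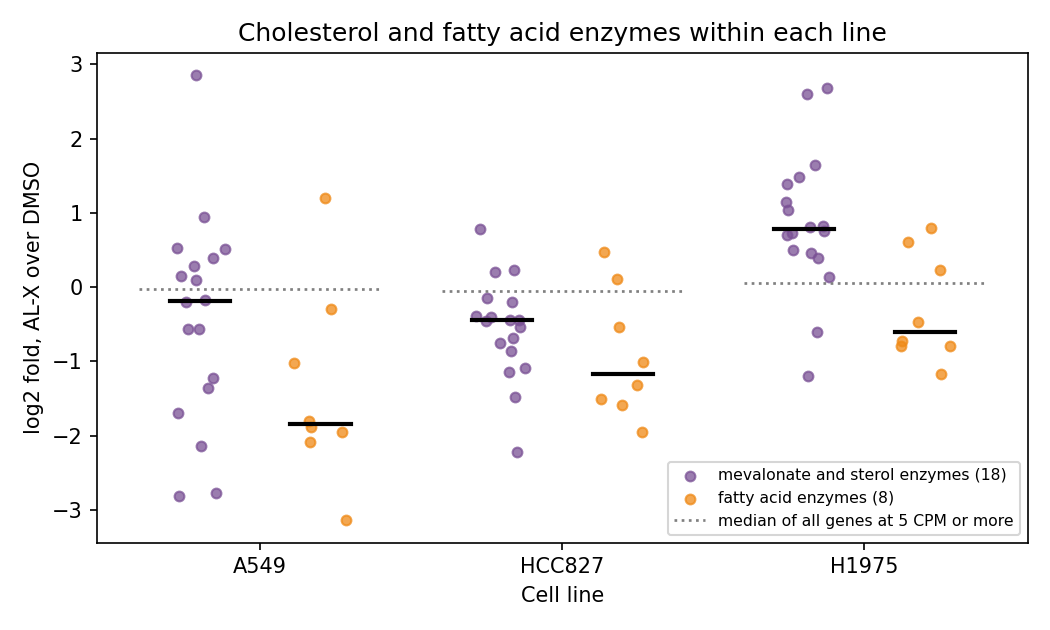
Log2 fold of AL-X over DMSO for the 18 mevalonate and sterol enzymes (purple) and the 8 fatty acid enzymes (orange) in each line; points are genes with random sideways spread, black bars are medians and the dotted line is the median of all genes at 5 CPM or more. The fatty acid median is the lower of the pair in each line, by 1.66 in A549, 0.72 in HCC827 and 1.38 in H1975.

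ABCA1 and MYLIP, both known LXR targets, lay on opposite sides of their controls in A549 and H1975. ABCA1 (ENSG00000165029, chr9:104781002-104928237, minus strand), which exports cholesterol to apolipoproteins, had 76.8 CPM with DMSO and 1.97 with AL-X in A549, 55.1 and 19.5 in HCC827, and 58.4 and 16.1 in H1975. It was lower in every line without overlap, by log2 folds of -5.27 (interval -5.54 to -5.03), -1.49 and -1.86, and by -2.74 across lines (SE 0.77, edgeR adjusted p = 0.1502). MYLIP (ENSG00000007944, chr6:16129125-16148248, plus strand), an E3 ligase that marks lipoprotein receptors for degradation, had 11.5 and 463 CPM in A549, 18.6 and 16.3 in HCC827, and 19.3 and 158 in H1975. It was thus far higher in A549 (5.33) and H1975 (3.03) and near its control in HCC827 (-0.19), with 2.81 across lines (SE 0.99, adjusted p = 0.222). Leaving out each line in turn gave MYLIP folds from 1.47 to 4.14. The highest came with HCC827, the line near its control, left out (edgeR adjusted p = 0.0347). HCC827 is singled out by the same values, so this p is not a separate test. Over the alternatives the adjusted p ranged from 0.0167 to 0.627. The fit without HCC827 has 1 residual degree of freedom and called 184 genes in place of 52, with 0.613% of all genes called higher.

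A contrast of each line with the average of the other pair was tested for every gene. The single line has no replicate of its own, and its spread was taken to equal that of the others. No member passed for A549, HCC827 or H1975, and 0.28%, 0.261% and 0.0% of all genes did. At an unadjusted p under 0.05 there were 5 in A549, 4 in HCC827 and 1 in H1975, beside 11.0%, 8.19% and 1.16% of all genes. MYLIP in HCC827 was at -4.37 (SE 1.18, edgeR adjusted p = 0.0711) and passed with limma-voom (-4.39, adjusted p = 0.0302, with 0.727% of all genes called), but not with library totals (-3.53, adjusted p = 0.640). ABCA1 in A549 was at -3.60 (SE 0.97, adjusted p = 0.0935). MVD was at -3.09 in A549 (SE 0.99) and MVK at -2.96 (SE 1.05). Also counted in A549 were MYLIP at 3.91 (SE 1.17) and LSS at -1.94 (SE 0.87). The gene counted in H1975 was MVD, at 3.33 (SE 1.56).

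A list of 55 further genes of these pathways held 51 that passed the filter, all except IDI2, THRSP, ABCG1 and CH25H. None passed the across-line test, which 0.256% of all genes tested did. At an unadjusted p under 0.05 in that test none was higher, against 5.48% of all genes. Of the 51, 2 were lower, ACACB and GPAM, against 10.2% of all genes. Their median log2 fold was 0.04, against -0.27 over all genes tested, which include genes under 5 CPM. Over genes at 5 CPM or more, the within-line medians were -0.019 (A549), -0.045 (HCC827) and 0.063 (H1975). ACACB, the mitochondrial acetyl-CoA carboxylase, had 43.1 and 3.84 CPM in A549, 4.29 and 1.31 in HCC827, and 10.4 and 4.58 in H1975 (-2.11 across lines, SE 0.71, edgeR adjusted p = 0.210). GPAM, which starts glycerolipid synthesis, was at -1.71 (SE 0.70), the oxysterol-binding relative OSBPL5 at -1.65 (SE 0.78) and NR1H3, the LXRα receptor, at -1.25 (SE 0.73). In A549 NR1H3 had 25.7 CPM with DMSO and 4.32 with AL-X. Positive folds were found for FAXDC2 (1.17, SE 0.94), the lysosomal sterol carrier NPC2 (1.13, SE 0.58) and SMPDL3A, an LXR target (0.82, SE 0.68). NPC2 was above 0 in every line under both scalings, whereas FAXDC2 was below 0 in H1975 (-0.52). FAXDC2 was low in A549 (0.263 CPM with DMSO and 2.87 with AL-X) and in H1975 (0.519 and 0.356). SMPDL3A was at 0.69 in A549, which becomes -0.32 with library totals.

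Some counts may be shared with neighbours, since the strand setting is not given. Exons of ACAT2 overlap TCP1 on the other strand, which had 23823 counts with DMSO and 93034 with AL-X in A549. Exons of MVK overlap MMAB (4591 and 1217 in A549), those of SREBF1 overlap RAI1 (19960 and 325 in A549), those of TM7SF2 overlap VPS51 on the same strand, and those of FADS2 overlap FADS1 and FEN1. The pseudogene SCDP1 had 1056 and 76 counts in A549, beside 571726 and 35882 of SCD. HSD17B7P2, a close copy of HSD17B7, had 294 and 696 in H1975. How the authors assigned such reads is not given in the sources used here, and values of these genes are less certain than the others.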

How the data were processed

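RNA was measured in 3 lines with DMSO or AL-X, 1 library each. Per the labels' protocols, Trizol RNA went into SureSelect XT HS2 mRNA libraries. The submitters' processing notes name bcl2fastq 2.20 and GRCh38. No aligner, counter, annotation or strand setting is given in the sources used here. What the authors deposited are raw read counts for each Ensembl gene, 98139178 to 126840915 per library. Of 60671 identifiers, 60401 matched a symbol and 58453 a position in GENCODE 29 on GRCh38.

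The line paired the libraries (same-line deviations from the group means correlated at 0.617, 0.494 and 0.700) and entered as a block. Tests used edgeR 4.0.16 in R 4.3.3 (TMM, filterByExpr, robust quasi-likelihood, Benjamini-Hochberg at 0.05), which kept 20344 genes and 2 residual degrees of freedom. The interaction test had 1. A standard error came from the fold and its F value. The p-values reflect spread between lines only, which no label separates from technical spread. Within-line folds used a prior count of 2, with exact binomial 95% intervals of the count ratio. Shares are of all counts.

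Alternatives were DESeq2 size factors, library totals, no filter, 1 CPM in 3 libraries, DESeq2 1.42.0, limma-voom 3.58.1, no robust shrinkage, no block, mitochondrial genes left out, a prior count of 0.5, and each line left out. Members, lists and tests were chosen with earlier results of these data known. All 34 members are named. Of the 55 further genes, those past the test and up to 4 at either end with a mean of 5 CPM or more are named, besides those named in counts of 5 or fewer. Some genes that this rule or the pathway would include are not reported here.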

Additional observations from a re-analysis of the deposited data

How the results depend on the processing

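No member passed the across-line test with DESeq2 size factors, library totals, no filter, at least 1 CPM in 3 libraries, no robust shrinkage, no replicate block or mitochondrial genes left out. DESeq2 called 2 members higher and 4 lower and 1 further pathway gene, ACACB, lower; limma-voom called 1 higher and 1 lower. Leaving out a line gave 0 to 1 higher. Over all genes, 52 were called, against 1986 with DESeq2, 661 with limma-voom, 12 without mitochondrial genes, 106 to 184 leaving out a line, and 0 with library totals, with all genes kept, or when the pairing by line was dropped (no replicate block). With library totals, 2 members were at least 2-fold higher in A549 instead of 4 and 8 lower in H1975 instead of 3. Shares of all genes were not counted under that scaling. The median member level with DMSO was then 22.1 CPM per kb in A549, 18.6 in HCC827 and 20.6 in H1975 instead of 19.7, 15.9 and 17.2. With limma-voom 1 member, MYLIP, differed in HCC827 from the other lines, and 0 did with edgeR.

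Some across-line log2 folds changed sign. With library totals they became -0.10 for PMVK, -0.30 for FDFT1, -0.22 for SQLE, -0.34 for CYP51A1, -0.18 for NSDHL and -0.0283 for EBP; with no filter -0.0094 for CYP51A1; without the block by line 0.0203 for FDPS. Leaving out each line in turn gave -0.12 to 1.04 for HMGCS1, -1.21 to 0.11 for ACAT2, -1.58 to 0.23 for MVK, -0.74 to 1.45 for MVD, -0.71 to 0.0868 for FDPS, -0.46 to 0.73 for FDFT1, -0.0280 to 0.51 for SQLE, -0.0578 to 0.30 for CYP51A1, -0.16 to 0.49 for NSDHL, -0.89 to 0.19 for HSD17B7, -0.38 to 0.0169 for SC5D, -0.90 to 0.0554 for DHCR7, -0.32 to 0.36 for SCAP and -0.42 to 0.22 for ACLY. The cause was not tested.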
